A study of Homo sapiens with 8 samples.

Results

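Expression of 10 human genes tied to FOXO transcription factors, nutrient deprivation and exit from the cell cycle was followed in HepG2 cells, an established line from a human hepatocellular carcinoma. The 10 genes were CCNG2, DEPP1, IRS2, SESN3, CITED2, TXNIP, BCL6, CDKN1B, FOXO1 and FOXO3, of 19775 genes with a probe set of their own in the table. A probe set was taken when the platform annotation gave it exactly 1 symbol and that symbol, or an older name of it, was one of the 10. This gave 33 probe sets of 54675, and 3 more that are annotated to both FOXO3 and FOXO3B were left out. The genes were chosen from measured values of these 8 arrays, and the contrast used for the choice is not recorded. Their change with time without serum may be that contrast and is therefore described without a test. A difference with quercetin may also have entered the choice. The p-values given below for the members in the quercetin contrasts are therefore descriptions and no independent support. Cells were treated with 3 µM quercetin, a plant flavonol, in serum-free medium for 2, 4, 12 or 24 h, and control cells had serum-free medium alone for the same times. All cells, controls included, had been starved of serum beforehand, for 24 h by the series text and overnight by the sample labels. There were 8 arrays, 4 per treatment and 1 per treatment and time, so no condition has a replicate array and each value is a single measurement.

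FOXO proteins are transcription factors that insulin and growth factors hold back: the kinase AKT phosphorylates them and they leave the nucleus. When the growth factor signal falls they return and switch on genes for cell cycle arrest, stress defence and fasting metabolism, in liver including genes of glucose production. Among the 10, FOXO1 and FOXO3 are the factors themselves. IRS2 is the adaptor that carries the insulin signal into the cell, SESN3 a sestrin that restrains the growth kinase complex mTORC1, CCNG2 an unconventional cyclin tied to cell cycle arrest and CDKN1B the cyclin-dependent kinase inhibitor p27. BCL6 is a transcriptional repressor, CITED2 a coregulator that competes with HIF1A for CBP and p300, DEPP1 a small FOXO-responsive protein linked to autophagy, and TXNIP an arrestin-like protein that binds thioredoxin and lowers glucose uptake.

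Promoter windows from RefSeq (GRCh38.p14), which run from 250 bases before to 50 after an annotated start, matched all 10 genes, with 17 windows. They were searched on both strands for the FOXO element GTAAACA, the insulin response element CAAAACA and the E-box CACGTG. None of these overlaps another at a match shown here. GTAAACA occurred in windows of DEPP1 and TXNIP (2 of the 10 genes), and 3.42% of 35116 windows held it. CAAAACA occurred in the window of IRS2 (4.92% of all windows), and CACGTG in windows of CCNG2 and CITED2 (7.26%). A match is a description of the letters and not a shown binding site. The windows of DEPP1 and TXNIP are printed because they hold the FOXO element, and that of CCNG2 because this gene had the largest rise from 2 to 24 h. They are read 5′ to 3′ on the gene's strand, with the FOXO element (DEPP1, TXNIP) or the E-box (CCNG2) in capitals. The DEPP1 window lies at chr10:44978760-44979059 on the minus strand, that of TXNIP at chr1:145996530-145996829 on the minus strand, and that of CCNG2 at chr4:77156957-77157256 on the plus strand.
DEPP1: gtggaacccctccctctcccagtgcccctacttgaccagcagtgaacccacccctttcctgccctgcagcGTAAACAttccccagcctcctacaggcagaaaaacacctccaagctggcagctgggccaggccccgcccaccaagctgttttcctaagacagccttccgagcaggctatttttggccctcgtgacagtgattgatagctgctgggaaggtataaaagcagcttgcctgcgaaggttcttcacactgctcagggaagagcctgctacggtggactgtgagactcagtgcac
TXNIP: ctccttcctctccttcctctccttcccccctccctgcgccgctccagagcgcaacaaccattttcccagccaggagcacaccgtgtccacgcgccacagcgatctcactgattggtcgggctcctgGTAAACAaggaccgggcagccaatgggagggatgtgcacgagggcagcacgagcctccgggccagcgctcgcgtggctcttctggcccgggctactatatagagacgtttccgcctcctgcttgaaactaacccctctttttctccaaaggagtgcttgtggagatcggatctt
CCNG2: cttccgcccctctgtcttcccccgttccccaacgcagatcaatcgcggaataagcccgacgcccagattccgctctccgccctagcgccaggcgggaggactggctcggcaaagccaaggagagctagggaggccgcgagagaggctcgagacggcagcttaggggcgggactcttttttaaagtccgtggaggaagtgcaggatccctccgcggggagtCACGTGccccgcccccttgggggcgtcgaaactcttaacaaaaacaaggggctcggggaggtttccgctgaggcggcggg
The first base of the FOXO element lay 180 bases before the start in DEPP1 and 124 in TXNIP, and that of the E-box lay 30 bases before the start in CCNG2.

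Values are log2 expression values per probe set, so a difference of 1 is a doubling. The median over all probe sets was 7.43, and genes whose highest probe set averaged below it were treated as dim and not tested. This left 13298 genes, 8 of the 10 among them. IRS2 and SESN3 fell below the line. Array medians lay between 7.36 and 7.48. Mean signal of the hybridisation spike-ins, transcripts added to every array, was 11.19 to 11.35 in the control array at 2 h and both arrays at 12 h and 11.83 to 12.11 in the other 5. The 18S rRNA signal differed most within the 2 h pair, with 12.01 in quercetin and 8.57 in control. The ACTB 3' minus 5' signal, which is larger for shorter or degraded RNA, differed most within the 12 h pair, with 0.88 in quercetin and 1.40 in control. The 7 of 8 hepatocyte markers with a probe set were bright (11.18 to 15.14), and the array means of markers of other cell types were 7.59 to 7.87 for fibroblasts, 8.57 to 8.94 for leukocytes, where LYZ read at least 13.40 and the other 4 at most 8.41, and 7.41 to 7.72 for endothelium.

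CCNG2 showed the largest rise from 2 to 24 h, as the mean of the arms, of all 13298 genes. Its highest probe set, 202769_at, read 7.56, 7.67, 10.20 and 11.01 in quercetin-treated cells at 2, 4, 12 and 24 h, and 7.96, 8.51, 10.12 and 11.49 in controls. The 24 h arrays were the highest and the 12 h arrays next in both arms, and no late array overlapped an early one. In order, the control array at 24 h was followed by quercetin at 24 h, quercetin and control at 12 h, control at 4 and 2 h, and quercetin at 4 and 2 h. The 2 arrays at 12 h lay 0.08 apart, and those at 24 h lay 0.49 apart. The 24 h minus 2 h difference was 3.45 with quercetin and 3.53 in controls, a mean of 3.49 or 11.2-fold. Of that, 68.8% was already present at 12 h.

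The 5 probe sets of CCNG2 did not show the same course. The probe set 202770_s_at read 6.41, 6.16, 7.90 and 8.32 with quercetin and 6.59, 6.46, 8.05 and 7.69 in controls at 2, 4, 12 and 24 h. It too had both late times above both early times in each arm, and its 24 h minus 2 h difference was 1.91 with quercetin and 1.10 in controls. At 24 h its order of the arms was the reverse of that on 202769_at, with quercetin 0.63 higher on 202770_s_at and -0.49 on 202769_at. The other 3 probe sets stayed within a range of 0.45 to 0.88 over all 8 arrays, with mean differences between 24 and 2 h of 0.38 (228081_at), 0.10 (1555056_at) and 0.42 (211559_s_at). Over the 8 arrays, 202769_at and 202770_s_at correlated at a Pearson r of 0.91, and 202769_at with the others at 0.64 (228081_at), 0.09 (1555056_at) and 0.43 (211559_s_at). These correlations are descriptions, since the arrays share the time course and the probe sets share a target. Only 202769_at and 228081_at averaged above the median of all probe sets. A change in 1555056_at, 202770_s_at and 211559_s_at could therefore be compressed near background, and this was not tested. Of these dim probe sets 202770_s_at had a mean 24 h minus 2 h difference of 1.51.

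**Figure D1:**
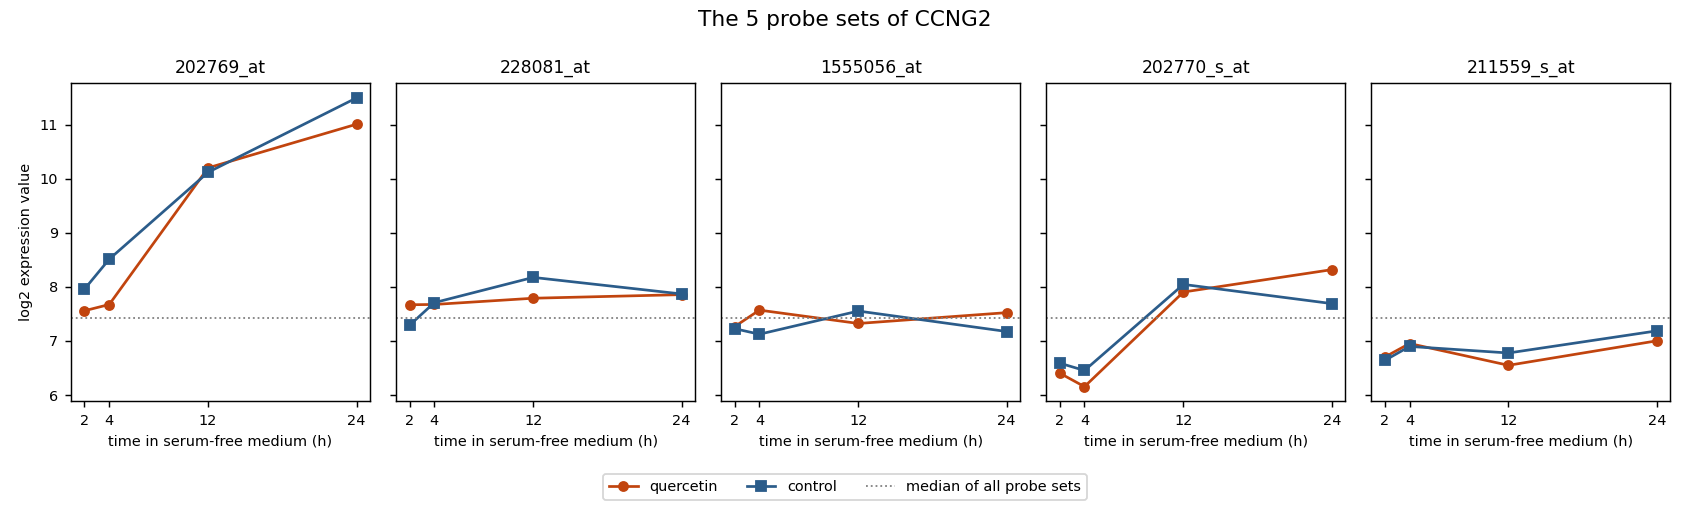
Log2 expression values (y axis) of the 5 CCNG2 probe sets against time in serum-free medium in hours (x axis), with circles for quercetin and squares for control, 1 array per point, and a dotted line at the median of all probe sets. On 202769_at and 202770_s_at the 12 and 24 h arrays lie above the 2 and 4 h arrays, while the other 3 stay within 0.88.

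DEPP1 had the third largest rise from 2 to 24 h, and all of it appeared after 12 h. The probe set 209183_s_at read 9.77, 9.95, 9.60 and 12.98 in quercetin-treated cells at 2, 4, 12 and 24 h, and 10.27, 9.44, 9.59 and 12.97 in controls. The lower of the 24 h arrays stood 2.70 above the highest earlier array, and the arms were 0.01 apart at 24 h. The mean 24 h minus 2 h difference was 2.96, or 7.76-fold. The second probe set, 209182_s_at, followed the same course, with 8.58, 8.52, 8.03 and 10.75 under quercetin and 8.45, 8.28, 7.92 and 11.02 in controls. On both probe sets the mean at 12 h was below that at 2 h, with differences of -0.43 on 209183_s_at and -0.54 on 209182_s_at.

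CITED2 followed CCNG2 rather than DEPP1 in its timing. Its probe set 209357_at read 7.64, 7.88, 9.40 and 10.01 with quercetin and 8.21, 8.49, 9.08 and 10.14 in controls at 2, 4, 12 and 24 h. Late arrays stood above early ones in both arms, and the mean 24 h minus 2 h difference was 2.14 (4.42-fold), with 61.1% of it present at 12 h. On 207980_s_at the 24 h minus 2 h difference was 1.59 under quercetin and 1.26 in controls, while 227287_at differed in sign between the arms (-0.27 under quercetin and 0.81 in controls).

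BCL6 was higher at 24 h on all 3 of its probe sets. The highest, 203140_at, read 10.34, 10.17, 10.77 and 12.11 with quercetin and 10.42, 10.56, 11.00 and 12.40 in controls at 2, 4, 12 and 24 h, a mean 24 h minus 2 h difference of 1.88 (3.67-fold). Of this, 26.8% was present at 12 h. The means were 0.80 on 228758_at and 1.08 on 215990_s_at. CDKN1B, with 1 probe set (209112_at), read 10.83, 10.85, 11.35 and 11.81 with quercetin and 11.08, 10.99, 11.36 and 11.98 in controls. Its 12 and 24 h arrays lay above its 2 and 4 h arrays in both arms, and the mean 24 h minus 2 h difference was 0.94 (1.92-fold).

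TXNIP was the member whose 24 h minus 2 h difference departed most between the arms on the highest probe set. On 201010_s_at it read 10.43, 10.61, 10.86 and 11.59 in quercetin-treated cells at 2, 4, 12 and 24 h, and 11.64, 11.04, 10.95 and 11.60 in controls. The quercetin arm was lowest at 2 h and highest at 24 h, whereas the control arm was as high at 2 h as at 24 h with lower values between. The 24 h minus 2 h difference was thus 1.15 with quercetin and -0.04 in controls. The other probe sets gave 0.90 with quercetin and -0.01 in controls (201009_s_at) and 1.81 with quercetin and 0.08 in controls (201008_s_at). On 201008_s_at the quercetin arm read 8.70, 8.95, 9.01 and 10.50 and the control arm 10.15, 9.31, 8.51 and 10.23. On 201009_s_at the quercetin arm read 10.74, 10.51, 10.82 and 11.65 and the control arm 11.51, 11.02, 10.33 and 11.50. On all 3 probe sets control was above quercetin at 2 and 4 h, and on these 2 it was below quercetin at 12 and 24 h.

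The FOXO genes themselves differed less between the times. FOXO3 on 224891_at read 10.94, 11.03, 11.09 and 11.81 with quercetin and 11.20, 11.14, 11.18 and 11.76 in controls at 2, 4, 12 and 24 h. Both 24 h arrays lay above all others, and the mean 24 h minus 2 h difference was 0.72 (1.64-fold). It was 0.59 on 204131_s_at, 0.09 on 224889_at and 0.03 on the dim 231548_at. FOXO1 on 202724_s_at read 8.83, 8.99, 8.98 and 9.25 with quercetin and 9.16, 8.85, 9.00 and 9.76 in controls, a mean difference of 0.51 between 24 and 2 h. The other FOXO1 probe sets gave 0.09 (202723_s_at) and 0.12 (228484_s_at, dim).

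IRS2 and SESN3 were dim on every probe set. The 2 IRS2 probe sets read between 6.80 and 7.15 (209184_s_at) and between 6.37 and 7.10 (209185_s_at), with mean 24 h minus 2 h differences of -0.02 and -0.29. The highest of the 7 SESN3 probe sets, 235150_at, lay between 6.10 and 6.50, the other 6 had means of 5.20 to 5.61, and no SESN3 probe set spanned more than 0.44 over the 8 arrays. Values this low may lie at the floor of the array, so these probe sets do not show whether the genes differed.

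**Figure D2:**
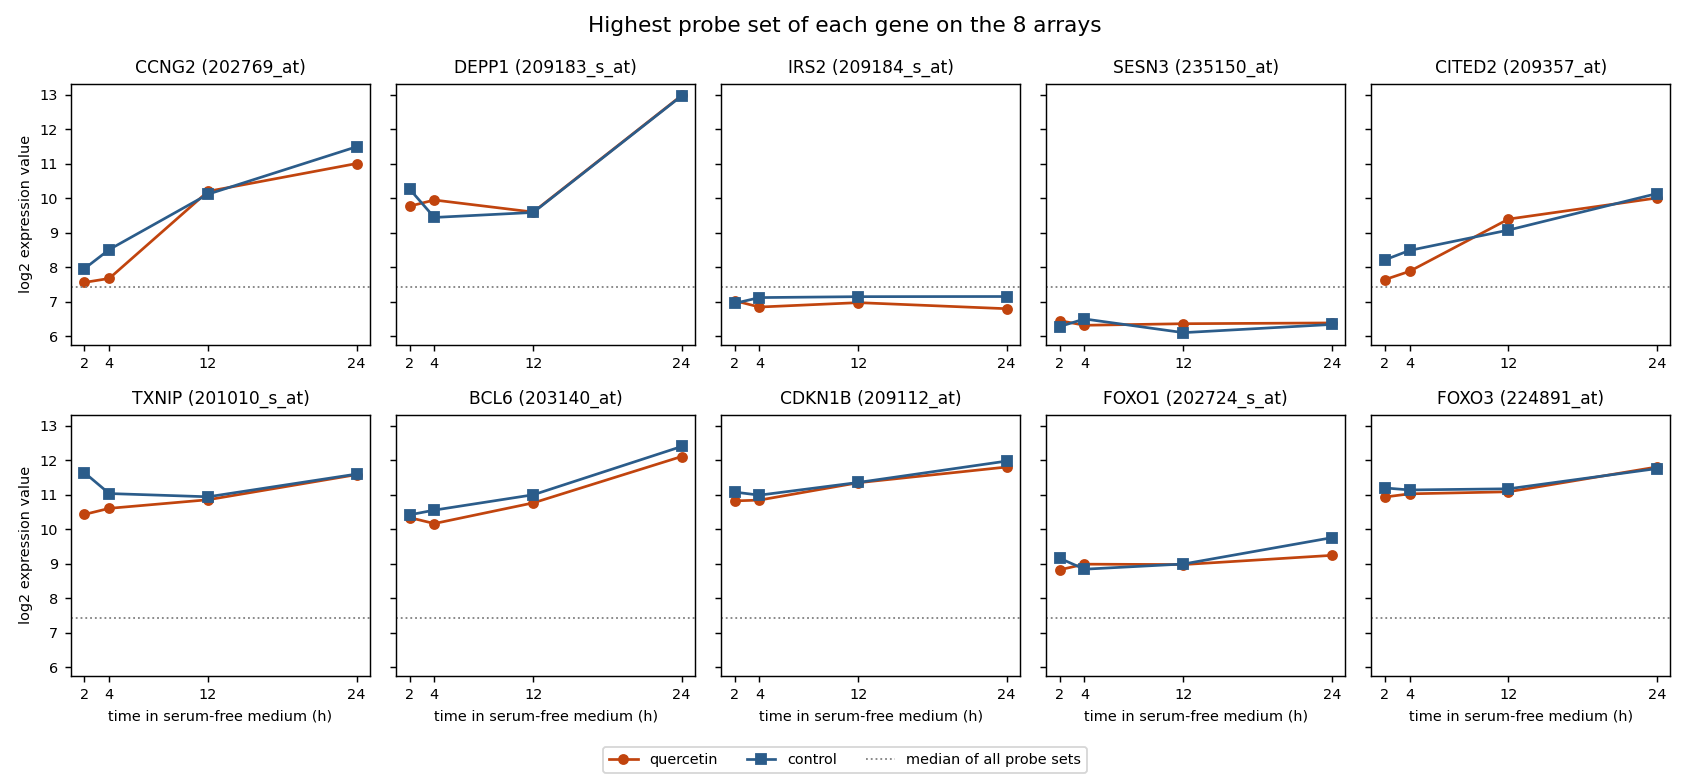
Log2 expression value (y axis) of the highest probe set of each of the 10 genes against time in serum-free medium in hours (x axis), circles for quercetin and squares for control, 1 array per point, dotted line at the median of all probe sets. CCNG2 and CITED2 are higher from 12 h, DEPP1 and BCL6 are highest at 24 h, TXNIP starts lower with quercetin, and IRS2 and SESN3 stay below the median line.

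Of the 8 members above the brightness filter, 4 (CCNG2, DEPP1, CITED2 and BCL6) were at least 1 higher at 24 than at 2 h in both arms, where 1.81% of all tested genes were. Both 24 h arrays lay above both 2 h arrays for 7 of the 8, all but TXNIP, where 37.6% of tested genes did. Both 12 h arrays lay above both 2 h arrays for 4 (CCNG2, CITED2, BCL6 and CDKN1B), against 18.4%. Over all 33 probe sets, with no filter, 8 were at least 1 higher in both arms, against 1.08% of 41091 probe sets, and 17 had both 24 h arrays above both 2 h arrays, against 27.5%. The median 24 h minus 2 h difference was 1.41 over the 8 members and 0.09 over all tested genes. Higher in both arms, by any amount, were 7 of the 8, against 46.4% of genes. Because the choice may have used this contrast, nothing is read from these counts.

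**Figure D3:**
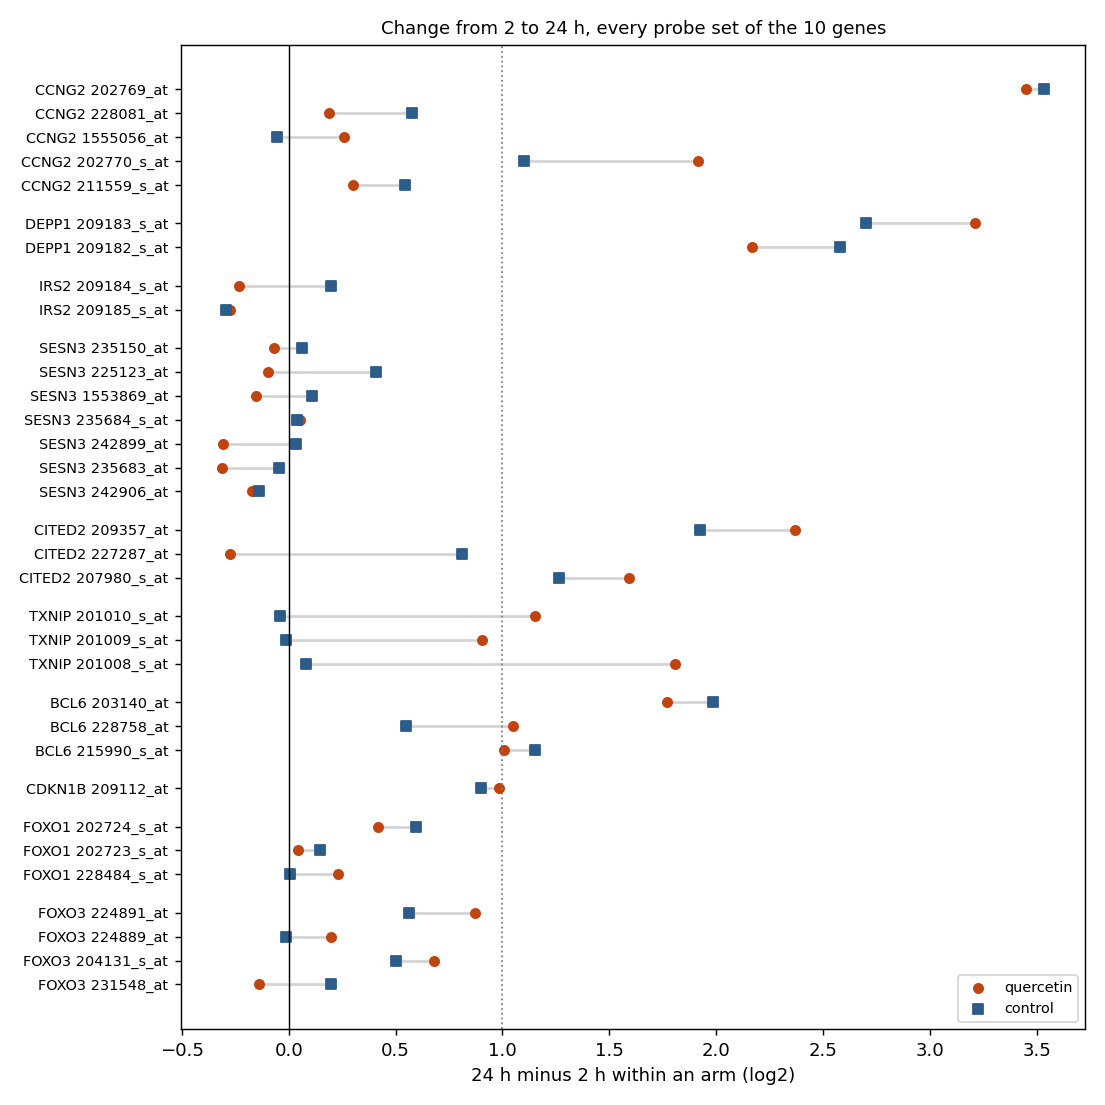
Difference between 24 and 2 h within an arm on the log2 scale (x axis) for each of the 33 probe sets (rows, by gene), circles for quercetin and squares for control, 1 array minus 1 array per point, dotted line at 1. CCNG2 202769_at reaches 3.45 and 3.53, the 3 TXNIP probe sets differ between the arms, and the SESN3 and IRS2 probe sets lie near 0.

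The contrast of quercetin against control asks whether the flavonol altered these genes over the course. It was fitted with limma across all tested genes, with time as a block, and the p-values measure how the difference varied between times rather than between cultures. None of the 8 members was called at an adjusted p under 0.05, and neither was any of the 13298 genes (0%). At an unadjusted p under 0.05 there were 785 genes (5.90%) and 3 of the 8 members, TXNIP, CCNG2 and BCL6, all lower with quercetin as 4.05% of genes were. The choice of the genes may have used a difference with quercetin. Nothing is therefore read from these shares or from those by time below. TXNIP averaged -0.44 ± 0.14 (SE), or 0.740-fold, with limma's adjusted p = 0.844. CCNG2 averaged -0.41 ± 0.14 (0.752-fold, adjusted p = 0.844 by limma) and was lower at 3 of the 4 times on 202769_at. Its other 4 probe sets averaged -0.01 (228081_at), 0.15 (1555056_at), 0.00076 (202770_s_at) and -0.07 (211559_s_at), and with the mean of its probe sets per gene the value was -0.07. BCL6 averaged -0.25 ± 0.11 (adjusted p = 0.844 by limma) on 203140_at and was lower at all 4 times, but its probe set 215990_s_at averaged 0.21 and was higher at all 4. CITED2 averaged -0.25, FOXO1 -0.18, CDKN1B -0.14, FOXO3 -0.10 and DEPP1 0.01, with adjusted p values from 0.865 to 0.995 by limma.

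By time, on the highest probe set of each gene, all 8 tested members were lower with quercetin at 2 h (58.0% of tested genes were). At 4 h 6 were lower (54.2%), at 12 h 5 (40.7%) and at 24 h 6 (66.2%). The median difference of the 8 members was -0.37, -0.27, -0.01 and -0.15 at these times, and that of all tested genes was -0.06, -0.02, 0.05 and -0.10. The probe sets of a gene did not all share the sign at 2 h. Lower were 2 of 5 for CCNG2, 1 of 2 for DEPP1, 3 of 4 for FOXO3 and 2 of 3 each for CITED2, BCL6 and FOXO1. BCL6 215990_s_at was at 0.25 and FOXO1 202723_s_at at 0.17. All probe sets of TXNIP and CDKN1B were lower. On the highest probe sets 3 members (TXNIP, BCL6 and CDKN1B) were lower at all 4 times, against 9.28% of genes. The other TXNIP probe sets, 201009_s_at and 201008_s_at, were higher with quercetin at 12 h (0.49 and 0.50) and 24 h (0.15 and 0.27). BCL6 215990_s_at was higher at all 4 times, and 228758_at was higher at 24 h (0.30) and lower at the other times. TXNIP was the only member at least 1 lower at any single time, at 2 h, where 47 genes (0.353%) were. At 4, 12 and 24 h 0.0226%, 0.0226% and 0.150% of genes were that much lower. At 2 h TXNIP differed by -1.21 (201010_s_at), -0.76 (201009_s_at) and -1.45 (201008_s_at), so quercetin was at 0.432, 0.589 and 0.366 times control. At 4 h the 3 probe sets were at -0.43, -0.51 and -0.35 in the same order. The 2 h pair is the one whose arrays differed in spike-in signal (12.11 in quercetin and 11.24 in control) and in 18S. Without that pair the mean TXNIP difference was -0.18 on 201010_s_at, and CCNG2 was at -0.41, the same as with it.

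CCNG2 differed by -0.40, -0.84, 0.08 and -0.49 at 2, 4, 12 and 24 h, and CITED2 by -0.57, -0.61, 0.32 and -0.13. On these highest probe sets both were thus lower with quercetin at 2 and 4 h and higher at 12 h. The other CCNG2 probe sets were lower at 12 h, at -0.38 (228081_at), -0.23 (1555056_at), -0.14 (202770_s_at) and -0.23 (211559_s_at). At 2 h they were at 0.38, 0.04, -0.18 and 0.06 in that order. CITED2 227287_at was at 0.35 at 2 h and -0.07 at 12 h, while 207980_s_at was at -0.34 and 0.31. DEPP1 was -0.50 at 2 h and 0.51 at 4 h on 209183_s_at, while 209182_s_at gave 0.14 and 0.24, so its probe sets disagreed in sign at 2 h. FOXO1 reached its lowest difference at 24 h on 202724_s_at (-0.51), when 202723_s_at was at 0.07 and the dim 228484_s_at at 0.21. On 202723_s_at the lowest difference was at 4 h (-0.36). CDKN1B stayed between -0.26 and -0.01.

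**Figure D4:**
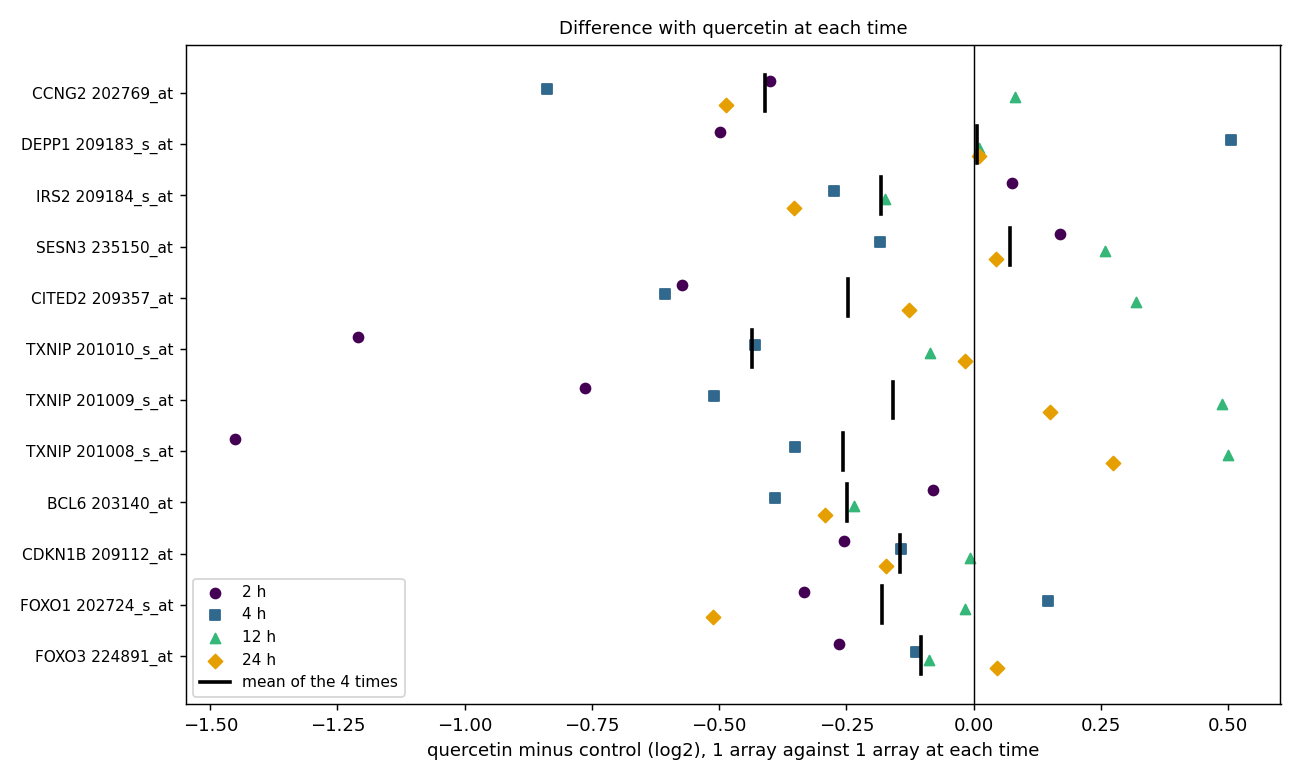
Quercetin minus control on the log2 scale (x axis) at 2, 4, 12 and 24 h (circles, squares, triangles, diamonds), 1 array minus 1 array per point, with a bar at the mean of the 4 times, for the highest probe set of each gene and all 3 of TXNIP (rows). The TXNIP values at 2 h lie at -1.21, -0.76 and -1.45, and the points of CCNG2 and CITED2 at 12 h lie above 0.

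In a second limma model the quercetin difference was averaged over the late times (12 and 24 h) and compared with its average over the early times (2 and 4 h). None of the 8 members was called, against 49 of 13298 genes (0.368%), and 2 members had an unadjusted p under 0.05, against 4.32% of genes. These were TXNIP, with a late minus early value of 0.77 ± 0.24 (SE, limma's adjusted p = 0.183), and CITED2, with 0.69 ± 0.31 (adjusted p = 0.994 by limma). When each probe set with 1 symbol was tested on its own, 135 of 22354 were called (0.604%). They included 2 of the 3 TXNIP probe sets, 201008_s_at with 1.29 ± 0.31 (adjusted p = 0.0146 by limma) and 201009_s_at with 0.96 ± 0.24 (limma's adjusted p = 0.0304). The third, 201010_s_at, is the one that represents the gene in the test by gene (0.77, adjusted p = 0.191 by limma). Without the 2 h pair neither probe set passed, with values of 0.74 (adjusted p = 0.998 by limma) and 0.83 (0.646), and neither did without the 12 h pair. With the arrays at 4 h left out 201008_s_at passed (1.84, adjusted p = 0.000120 by limma) and 201009_s_at did not (1.08, 0.0841). After quantile normalization, which called none of the probe sets, they were at 1.30 (adjusted p = 0.139 by limma) and 0.85 (0.0900). Since the genes may have been chosen by a difference with quercetin, these counts and p-values of members are descriptions.

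Other genes of insulin signalling to FOXO were read from a list of 27 symbols, of which 23 were tested. This list and those that follow were chosen with earlier results of these data known. Their counts are therefore descriptions, and nothing is read from their shares against all genes. Between 24 and 2 h 7 of the 23 rose and 1 fell by limma at an adjusted p under 0.05 (30.4% and 4.35%), where 17.3% and 3.98% of all tested genes did. SIRT1, a deacetylase that acts on FOXO proteins, rose by 1.11 ± 0.22 (SE). Here and for the lists below each time holds 1 array per arm. The SE and p-values thus measure how the difference between the arms varied over the times, not the spread between cultures. SGK1, a kinase that phosphorylates FOXO3, read 10.63 and 9.48 with quercetin at 24 and 2 h and 11.09 and 10.06 in controls, a rise of 1.09 ± 0.19 (adjusted p = 0.000300 by limma). TSC1, a brake on mTORC1, rose by 0.92 ± 0.18, and PIK3R3, a regulatory subunit of PI3 kinase, was the gene that fell, by 0.63 ± 0.18. The insulin receptor INSR (-0.13) and YWHAZ (-0.27), a 14-3-3 protein, did not pass. Both values are those of the highest probe set. The other INSR probe sets above the filter were at 0.18, 0.66 and 0.32, and those of YWHAZ at -0.25, 0.30 and 0.05. No gene of the list was called for quercetin over the 4 times, and the median was -0.12, against -0.03 over all tested genes. After quantile normalization 4 of the signalling genes rose and 2 fell, where 8.84% and 6.67% of all genes did. Without the quercetin array at 2 h 2 rose and none fell (5.72% and 1.44% of all genes), and the counts that rose were 4 without the quercetin and 3 without the control array at 24 h (9.89% and 6.50%).

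Of 40 other genes described as FOXO targets, 36 were tested, and 16 rose and 1 fell between 24 and 2 h by limma (44.4% and 2.78%, against 17.3% and 3.98% of all tested genes). The list shares INSR and PIK3CA with the signalling list. It too was chosen with earlier results of these data known, so nothing is read from these shares. PCK1, the enzyme that commits carbon to glucose production, read 10.21 and 7.42 with quercetin at 24 and 2 h and 10.52 and 8.69 in controls, a rise of 2.31 ± 0.24 (adjusted p = 1.38e-06 by limma). SOD2, mitochondrial superoxide dismutase, rose by 2.10 ± 0.35 on the 1 probe set annotated to it alone. Probe sets with several symbols were not read. MXI1, an antagonist of MYC, rose by 1.64 ± 0.16. The arms of SOD2 differed, with 10.50 and 9.79 under quercetin at 24 and 2 h and 11.76 and 8.27 in controls. SOD2 read 8.27 to 8.31 in the control array at 2 h and both arrays at 12 h, those of lower spike-in signal. It read at least 9.48 in the others, and the part of the arrays in its rise was not tested. BCL2L11, the proapoptotic protein BIM, fell by 0.62 ± 0.17, and its 5 probe sets above the filter ranged from -0.98 to 0.12. FBXO32 (-0.45) and NNMT (-0.31) did not pass. The median change was 0.40, against 0.09 over all tested genes. After quantile normalization, which lowered the median over all genes by 0.125 on the log2 scale, 10 rose and 3 fell, against 8.84% and 6.67% of all genes, and after cyclic loess the same numbers did (10.9% and 7.20% of all genes). Without the quercetin array at 2 h 7 rose and none fell, and 9 rose without either the quercetin or the control array at 24 h.

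Among relatives and partners of the 10 genes 22 of 28 were tested, and 5 rose and 2 fell (22.7% and 9.09%, against 17.3% and 3.98% of all tested genes). With 1 array or pair left out the count that rose lay between 1, without the quercetin array at 24 h, and 6. It was 2 without the quercetin array at 2 h or the control array at 24 h, 3 without either array at 4 h, and 2 after quantile normalization. SESN1, a sestrin like SESN3, rose by 1.19 ± 0.19 (adjusted p = 0.000142 by limma), and CREBBP, the CBP protein that CITED2 binds, by 0.53 ± 0.16. EP300, the p300 protein, was at 0.68 and did not pass. RBL1, the pocket protein p107, fell by 1.32 ± 0.22, and ARRDC4, an arrestin-like relative of TXNIP, read 7.66 and 8.69 with quercetin at 24 and 2 h and 7.68 and 9.17 in controls, a fall of 1.26 ± 0.21 (adjusted p = 0.000247 by limma). MLXIPL, the glucose-responsive factor ChREBP, was at -0.32 and did not pass. In the late minus early model 1 gene of each list was called by limma: IGF1R (0.89 ± 0.23), the IGF1 receptor, SOD2 (-1.62 ± 0.29) and EP300 (1.18 ± 0.30), where 0.368% of all tested genes were. None of the 3 passed after quantile normalization, after cyclic loess, without the trend in the variance or without the 2 h pair. IGF1R and EP300 also did not pass when the 12 h arrays were left out, nor IGF1R without those at 4 h, nor SOD2 without those at 24 h.

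The 5 genes most like CCNG2 in course, by Pearson correlation with 202769_at over the 8 arrays, were SEC24A (0.993), FAM13A (0.992), FBXO38 (0.990), POFUT4 (0.990) and CITED2 (0.988). FAM13A read 7.43, 6.99, 9.18 and 10.03 with quercetin and 7.59, 7.90, 9.25 and 10.35 in controls at 2, 4, 12 and 24 h. Like CCNG2 it was higher at 12 h than at 4 h in both arms and higher again at 24 h. Of the other members CDKN1B correlated at 0.96 and BCL6 at 0.91, with DEPP1 at 0.69 and TXNIP at 0.55. These values describe 8 arrays that share 1 time course and carry no test.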

How the data were processed

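RNA of HepG2 cells was hybridised to 8 Affymetrix arrays, 1 per treatment and time. The deposited values are log2 expression values, and the submitters' processing notes name RMA as the authors' method. No source used here states its version or settings. The number of arrays limits the precision. Probe sets with 1 symbol (41091 of 54675) were named from the platform annotation, updated through Entrez identifiers (41037). The brightest probe set stood for a gene. Genes averaging more than the median probe set entered limma 3.58.1 (R 4.3.3) fits (trend, Benjamini-Hochberg, threshold 0.05), by treatment and time, which leaves 3 residual degrees of freedom, or 2 for late minus early. Tested on simulated data, where 200 of 13298 genes were moved by 0.5, 1 or 1.5, the quercetin fit found 71.6%, 100% and 100% of them and the late minus early fit 7.46%, 59.7% and 95.5%. These percentages describe simulated data only. Recovery under differences between whole arrays, such as those of the 2 h pair, was not tested, so they may be too high for the real arrays. The members, lists, motifs and named genes were chosen with earlier results of these data known. The text names all members, the 3 largest positive and negative changes per list, genes called for quercetin, and the 5 genes most like CCNG2. Alternatives covered the filter, probe sets, normalization, moderation, blocks and arrays left out.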

Additional observations from a re-analysis of the deposited data

Results flagged for a closer look

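The quercetin difference departed between the early and late times for 2 of the 3 TXNIP probe sets when each probe set was tested on its own by limma, with late minus early values of 1.29 (201008_s_at) and 0.96 (201009_s_at). On 201008_s_at quercetin minus control was -1.45, -0.35, 0.50 and 0.27 at 2, 4, 12 and 24 h. Neither TXNIP probe set passed without the 2 h pair (0.74 and 0.83) or without the 12 h pair (1.17 and 0.79). Nor did either pass after quantile normalization (1.30 and 0.85) or cyclic loess (1.26 and 0.86). Both passed without the 24 h pair, and only 201008_s_at did without the 4 h pair or with median centring. By limma's test by gene the quercetin difference also departed between the early and late times for IGF1R (0.89), SOD2 (-1.62) and EP300 (1.18). SOD2 differed by 1.53 at 2 h and -1.26 at 24 h, EP300 by -1.07 at 2 h and 0.85 at 12 h, and IGF1R by -0.44 at 2 h and 0.83 at 12 h. The other EP300 probe set gave 0.33, and the other 4 of IGF1R ranged from -0.30 to 0.38. By gene, all 3 calls were lost after quantile normalization (limma's adjusted p 0.119 for IGF1R, 0.120 for SOD2 and 0.184 for EP300), after cyclic loess, without the trend in the variance, with the mean of probe sets and without the 2 h pair (1 for IGF1R, 0.406 for SOD2 and 1 for EP300). Without the 12 h pair IGF1R was at 0.67 and EP300 at 0.79, and neither passed, while SOD2 was at -2.25 and passed. The 2 h pair differed in 18S signal, with 12.01 in quercetin and 8.57 in control, and the 12 h pair in the ACTB 3' minus 5' signal, with 0.88 in quercetin and 1.40 in control. The part of either in these values was not tested beyond leaving the pairs out.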

How the results depend on the processing

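The fit of quercetin over the 4 times pairs the arrays by time. Without that block no member was called either, and the SE of CCNG2 was 0.87, against 0.14 with it. The labels give no replicate numbers, so no other pairing could be made. Read at each gene's highest probe set (or the mean of its probe sets, where that is the alternative), the count of members called was 0 under all 23 alternatives for quercetin over the 4 times and all 21 for late minus early. The 2 other TXNIP probe sets, 201008_s_at and 201009_s_at, were called for late minus early when every probe set was tested on its own. Both calls were lost after quantile normalization and without the 2 h pair. Read at the highest probe set or the mean, 4 to 6 members were at least 1 higher at 24 than at 2 h under 23 alternatives. DEPP1 changed sign for quercetin with median centring (-0.0165) and ranged from -0.16 to 0.18 with arrays or pairs left out. For late minus early DEPP1 was -0.13 with the mean of probe sets, -0.12 after quantile normalization, -0.0754 after cyclic loess and -0.49 to 0.51 with arrays left out. On the same measure FOXO1 was 0.015 with the mean of probe sets and -0.42 to 0.0777 with arrays left out, CDKN1B was -0.014 after quantile normalization, and BCL6 ranged from -0.18 to 0.13 with arrays left out. TXNIP at 24 against 2 h was -0.0402 in the control arm alone, 1.15 in the quercetin arm alone, and 1.07 with a block for array class (by spike-in signal). CCNG2 at 24 against 2 h was 1.18 with the mean of its probe sets. The 49 genes called for late minus early were 0 after quantile normalization, cyclic loess or without trend, 8 when the 2 h arrays were left out and 162 when the 24 h arrays were. For 24 against 2 h 2302 genes rose and 529 fell, against 1176 and 887 after quantile normalization and 1451 and 958 after cyclic loess. In the signalling list 4 rose and 2 fell under both, and among relatives and partners 2 rose and 3 fell. With 1 array or pair left out the count that rose was 2 to 8 in the signalling list, 7 to 18 among the other FOXO targets and 1 to 6 among relatives and partners. The causes were not tested. The single array per condition limits every value, and dim probe sets are limited by signal near background. The 24 against 2 h difference could not be fitted without the 2 h or the 24 h pair.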

Other observations

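The 3 probe sets annotated to both FOXO3 and FOXO3B differed among themselves in the difference with quercetin, as did those annotated to FOXO3 alone. On 217399_s_at quercetin minus control was 0.31, 0.47, 0.71 and 0.40 at 2, 4, 12 and 24 h, higher at all 4 times (mean 0.47), and its levels (6.18 to 7.16) lay below the median of all probe sets. On 204132_s_at it was -0.24, 0.20, 0.27 and 0.55. On 210655_s_at the mean was 0.06. On the probe sets annotated to FOXO3 alone the means were -0.10 (224891_at), 0.04 (224889_at), -0.11 (204131_s_at) and -0.02 (231548_at). Which of the genes these shared probe sets measured here cannot be told apart, and none of these values has a test of its own.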
